A study of Homo sapiens with 2 samples.

Results

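The 31 genes described here encode 21 enzymes that make or interconvert amino acids and carry one-carbon units, and 10 plasma membrane proteins that move amino acids. They were chosen by name, for their function, but with earlier results of these data known. All other gene lists below were chosen with the same knowledge. Of the 31 genes, 31 were found among the 58735 genes of the deposited count table and had at least 10 reads in at least 1 library. The cells were PLC8024, also called PLC/PRF/5 or Alexander cells, an epithelial line from a human hepatocellular carcinoma (HCC). RNA from 1 library of untreated wildtype cells (MAEL WT) was compared with RNA from 1 library of cells in which MAEL had been knocked out with an sgRNA (MAEL KO). Knockout lines in the study were grown from single sorted Cas9-transfected cells, so the MAEL KO library may stand for 1 clone, and clone and genotype cannot be told apart. With 1 library per genotype there was no replicate, no test and no p-value. The comparison asked which transcripts differed between cells with and without MAEL.

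Total read counts were 19904136 in MAEL WT and 20833332 in MAEL KO. MAEL itself had 1 read in MAEL WT and 0 in MAEL KO, so at this depth its transcript says nothing about the labels. All 10 hepatoma markers were detected, among them ALB with 59 reads in MAEL WT and 8550 in MAEL KO, and TF with 65436 and 72635 reads. Summed reads over 7 fibroblast markers were 280 and 177, over 6 leukocyte markers 1347 and 766, nearly all of them LYZ with 1251 and 737, and over 5 endothelial markers 354 and 408, nearly all of them PECAM1 with 348 and 392. The defining markers PTPRC, CD3E, VWF, KDR, COL1A2 and DCN had at most 3 reads in either library. Levels are given below as deposited FPKM, a read count divided by gene length and library size. A change is the log2 fold change of MAEL KO over MAEL WT after scaling the counts between libraries by TMM and adding 1. Its 95% interval covers the counting error of the reads alone. In such libraries, fewer cells that express a gene and less RNA per cell cannot be told apart.

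Serine is built from a glycolytic intermediate by PHGDH, PSAT1 and PSPH in turn. Serine hydroxymethyltransferases then pass a carbon from serine to folate, and parallel sets of enzymes in mitochondria and in the cytosol oxidise or reduce that carbon for purine and thymidylate synthesis. Asparagine, proline and cysteine are made in short side branches, and aminotransferases exchange amino groups between amino acids and keto acids. Many of these genes and of the amino acid transporters are known targets of ATF4, the transcription factor translated when the integrated stress response is active, which binds C/EBP-ATF response elements. Tumour cells of the liver use the same pathways to supply nucleotide synthesis and glutathione.

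Because promoter elements of this kind are shared among genes of these pathways, RefSeq promoters on GRCh38.p14, running from 250 bases before to 50 bases after a transcription start, were searched on both strands for the element core TGATGNAA. The RefSeq set held 41 promoters of 23 of the 31 genes, and none was at hand for SHMT2, ALDH1L2, PYCR1, PSPH, GPT, GPT2, BCAT2 or SLC7A11. The core was present in 9 of the 23 genes, or 39.13%, against 4.46% of all 27305 genes with a promoter. Counted by promoter, it was present in 11 of the 41, against 3.62% of all 35116 promoters. Among the 11 are overlapping promoters of MTHFD1L that hold the same site. The 23 genes had 1.78 promoters each on average and all genes 1.29. The matches are shown because they let a reader set the motif beside the change of each gene. Each window of at most 30 bases is written 5′ to 3′ in the direction of the gene, with the match in capitals. In SLC1A4, SLC3A2 and GOT1 the core lies on the other strand, so its reverse complement is shown.
ASNS, chr7:97872458-97872487, minus strand: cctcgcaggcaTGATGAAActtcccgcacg
BCAT1, chr12:24949131-24949160, minus strand: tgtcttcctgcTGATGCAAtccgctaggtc
SLC1A4, chr2:64989381-64989410, plus strand: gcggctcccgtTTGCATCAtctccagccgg
SLC1A5, chr19:46784893-46784922, minus strand: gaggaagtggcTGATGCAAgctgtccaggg
SLC7A1, chr13:29595663-29595692, minus strand: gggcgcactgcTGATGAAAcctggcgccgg
SLC3A2, chr11:62881725-62881748, plus strand: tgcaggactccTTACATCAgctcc
MTHFD1L, chr6:150866346-150866375, plus strand: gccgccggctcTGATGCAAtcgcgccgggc
SLC38A1, chr12:46266502-46266531, minus strand: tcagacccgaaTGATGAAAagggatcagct
GOT1, chr10:99430804-99430833, minus strand: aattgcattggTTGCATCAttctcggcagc

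Of the 8 genes with a promoter whose transcripts were more than 2-fold lower in MAEL KO, 5 held the core (ASNS, BCAT1, SLC1A4, SLC1A5 and SLC7A1). Of the 15 other genes with a promoter, 4 did (SLC3A2, MTHFD1L, SLC38A1 and GOT1). The 8 genes had 16 promoters and the 15 others had 25. Whether the core has a part in the changes was not tested. MTHFD1L, SLC38A1 and GOT1 also held the core, with log2 fold changes of -0.03, -0.13 and 0.18. A match is a description of letters in this window and not a binding site, and no factor was measured at these promoters. For comparison, the E-box CACGTG, the core bound by MYC and related factors, was present in 7 of the 23 genes (30.43%) against 8.77% of all genes. The antioxidant response element core TGACNNNGC was likewise present in 7, against 16.06% of all genes, and 0 matches of different motifs overlapped. Split in the same way, the E-box was held by 2 of the 8 lower genes and 5 of the 15 others, and so was the antioxidant core. Of the 3 one-carbon genes that were more than 2-fold higher in MAEL KO, MTHFD1 held an E-box, and so did ALDH18A1, the first enzyme of proline synthesis, which was also higher.
MTHFD1, chr14:64388327-64388354, plus strand: cagtccctaagCACGTGggttgggttgt
ALDH18A1, chr10:95656831-95656858, minus strand: ggctggcccgcCACGTGgagcgctggct
The E-box also lay in promoters of BCAT1, SLC1A5, SLC7A5 and SLC43A1, which were lower in MAEL KO, and of MTHFD1L.

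Of the 31 genes, 24 had a negative and 7 a positive log2 fold change. Of the 17887 genes with at least 10 reads in 1 library, 9294 had a negative and 8593 a positive one. The median of the 31 genes was -0.70, against -0.04 for those 17887 genes. The 21 enzymes alone had a median of -0.41, with 14 lower and 7 higher in MAEL KO, and 14.3% of them exceeded 1. The 10 transporters had a median of -0.97. The counting interval lay below 0 for 22 of the 31 genes and above 0 for 7, and it held 0 for MTHFD1L and GPT. Among the enzymes it lay below 0 for 12 and above 0 for 7. The same count over all genes was not made, so these counts show nothing particular to the 31 genes. Of the 31, 28 had at least 100 reads in both libraries. With that many reads even a small change, such as -0.13 for SLC38A1, had an interval that left out 0. Together the 31 genes took 0.715% of all reads in MAEL WT and 0.391% in MAEL KO. A log2 fold change below -2 was seen for 5 of them (ALDH1L2, SLC1A4, SLC6A9, ASNS and BCAT1), where 5.64% of all genes passed that limit. Below -1 there were 11, or 35.5%, against 16.5% of all genes and 9.16% of those with at least 100 reads in 1 library, which 30 of the 31 reached. In the other direction, 3 of the 31 exceeded 1, against 10.2% of all genes. Of these 3, 1, ALDH1L1, exceeded 2, against 2.16% of all genes. ALDH1L1 reached 10 reads in MAEL KO alone, so it could enter these counts only as a higher gene. With a minimum of 100 counts, 2 genes exceeded 1 and 0 exceeded 2, against 9.23% and 1.54% of all genes. The genes just past -1 were SLC7A1 and SLC1A5, and those just short of it were CTH and MTHFD2, so the count of 11 has no sharp edge. No count made over 31 genes chosen by function, with earlier results of these data known, is a test.

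**Figure D1:**
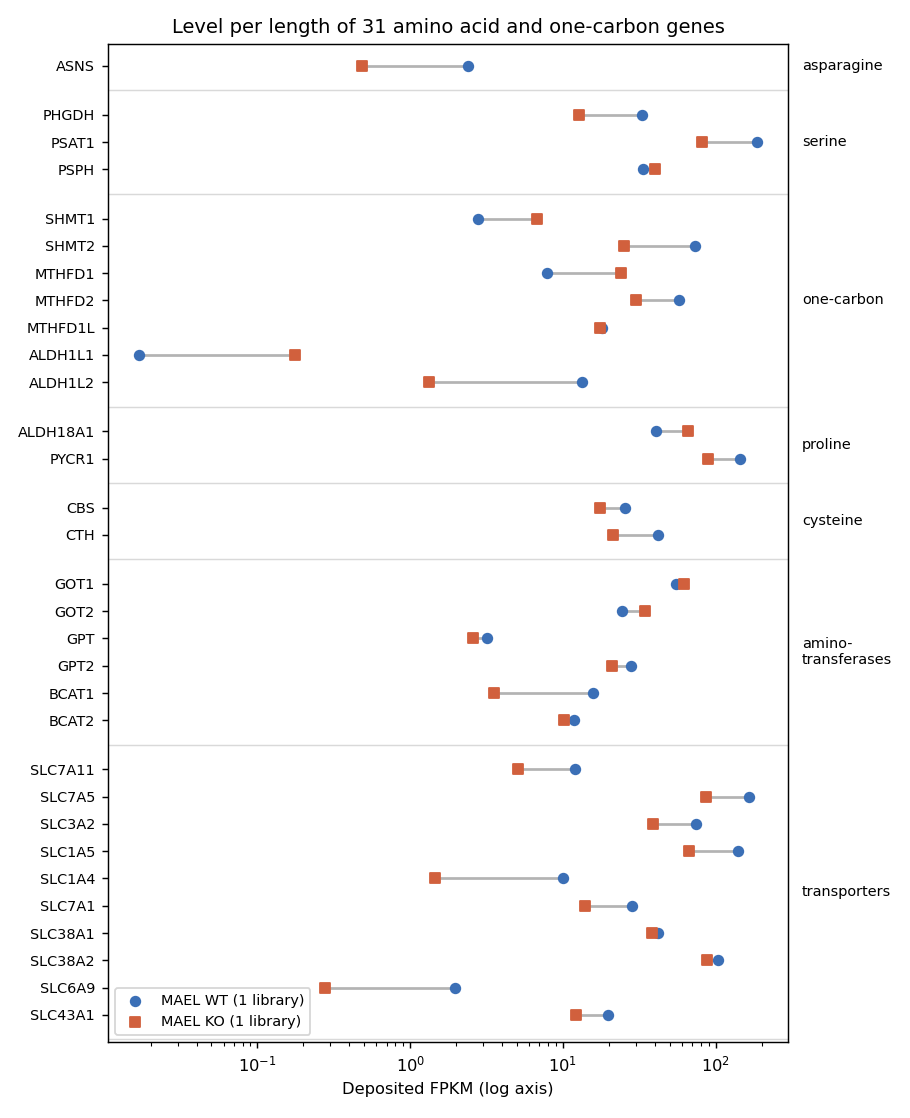
Deposited FPKM (log axis) of the 31 genes in the MAEL WT library (blue circles) and the MAEL KO library (orange squares), 1 library each, grouped by pathway step. All 10 transporters and most enzymes have the orange square to the left, while SHMT1, MTHFD1 and ALDH1L1 have it to the right.

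PSAT1 had the highest level in MAEL WT, 187 FPKM, and ALDH1L1 the lowest, 0.0167. In MAEL WT 5 genes reached 100 FPKM (PSAT1, SLC7A5, PYCR1, SLC1A5 and SLC38A2) and in MAEL KO none did, where PYCR1 was highest at 88.3 FPKM, followed by SLC38A2 at 87.7 and SLC7A5 at 86.9. Neighbours this close cannot be ordered without replicates. The median level of the 31 genes was 27.8 FPKM in MAEL WT and 20.8 in MAEL KO.

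In the serine branch, the first and middle steps were lower in MAEL KO and the last was not. PHGDH, which commits 3-phosphoglycerate to serine and sets the pace of the pathway, had 6593 reads in MAEL WT and 2228 in MAEL KO. Its level was 32.7 FPKM and 12.8 FPKM, and its scaled count was 2.56-fold lower in MAEL KO (log2 -1.35, interval -1.42 to -1.29). PSAT1, the aminotransferase that follows, had 8962 and 3391 reads, or 187 and 81.7 FPKM (log2 -1.19, interval -1.25 to -1.14). PSPH, the phosphatase that releases serine, had 2031 and 2088 reads and levels of 33.6 and 39.9 FPKM. Its log2 fold change of 0.25 (interval 0.16 to 0.34) turned to -0.03 when the libraries were scaled by total counts alone, so PSPH had no stable direction. Together the 3 genes took 0.0884% of reads in MAEL WT and 0.037% in MAEL KO.

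ASNS, which makes asparagine from aspartate and glutamine, had 234 reads in MAEL WT and 41 in MAEL KO, 4.85-fold lower (log2 -2.28, interval -2.82 to -1.82). It spans chr7:97852118-97872542 on the minus strand. Its level was low in both libraries, 2.40 and 0.485 FPKM. Exons of AC079781.5, a transcript annotated on the same strand, cover 44.56% of the exonic bases of ASNS. AC079781.5 was counted with 40 and 12 reads. Reads that fall in exons of both genes may be credited to either or to neither, so the level of ASNS is uncertain. ASNSP1, a transcribed pseudogene of it, held more reads than ASNS, 801 and 61, and the sum of both was 1035 in MAEL WT and 102 in MAEL KO (log2 -3.12). Both loci were lower in MAEL KO.

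Of the 7 one-carbon genes among the 31, the mitochondrial enzymes SHMT2, MTHFD2 and ALDH1L2 were lower in MAEL KO and MTHFD1L differed by less than counting error, while the cytosolic enzymes SHMT1 and MTHFD1 were more than 2-fold higher. The third cytosolic enzyme, ALDH1L1, reached 10 reads in MAEL KO alone, so it could enter the comparison only as a gene higher there. This description covers these 7 genes and not each compartment. Among other genes of the pathway, named after their values were seen, the mitochondrial GLDC and GCSH of glycine cleavage and MTHFD2L, a relative of MTHFD2, were higher in MAEL KO, with log2 fold changes of 1.64, 1.35 and 0.39 (interval of MTHFD2L 0.07 to 0.72), and MTHFS, which acts in the cytosol, was lower at -0.91. Summed FPKM of the mitochondrial set was 162 in MAEL WT and 73.7 in MAEL KO, and that of the cytosolic set was 10.7 and 30.95. The share of all reads went from 0.0923% to 0.0333% for the mitochondrial and from 0.0104% to 0.0252% for the cytosolic set.

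SHMT2, the mitochondrial serine hydroxymethyltransferase, had 7795 reads in MAEL WT and 2284 in MAEL KO (log2 -1.56, interval -1.63 to -1.49). SHMT1, its cytosolic counterpart, had 442 and 934 reads (log2 1.29, interval 1.13 to 1.46). The pair thus moved in opposite directions. MTHFD2, the mitochondrial dehydrogenase and cyclohydrolase, had 6121 reads in MAEL WT and 2756 in MAEL KO and was 1.92-fold lower (log2 -0.94, interval -1.01 to -0.88). Exons of SLC4A5 and AC006030.1 on the opposite strand cover 33.24% of its exonic bases, but these genes had no more than 17 reads in either library. MTHFD1L, which releases formate from mitochondria, had 1983 and 1675 reads, and its log2 fold change of -0.03 (interval -0.13 to 0.06) was within counting error. MTHFD1, the cytosolic enzyme that joins all 3 activities, had 1618 reads in MAEL WT and 4267 in MAEL KO, 3.05-fold higher (log2 1.61, interval 1.53 to 1.69).

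The formyltetrahydrofolate dehydrogenases, which burn the carried carbon to carbon dioxide with gain of NADPH, showed the widest contrast. ALDH1L2, the mitochondrial form at chr12:105019784-105084577 on the minus strand, had 2463 reads in MAEL WT and 215 in MAEL KO. It was 9.86-fold lower (log2 -3.30, interval -3.52 to -3.11), the largest decrease of the 31 genes. ALDH1L1, the cytosolic form at chr3:126103562-126197994 on the minus strand, had 5 reads in MAEL WT and 46 in MAEL KO, a log2 fold change of 3.16. With so few reads its interval ran from 2.09 to 5.10 on the log2 scale, and the value depended on the added count, at 2.499 with 5 added in place of 1 and 2.81 from deposited FPKM. Its level of 0.177 FPKM in MAEL KO was still below that of ALDH1L2, at 1.33 FPKM.

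**Figure D2:**
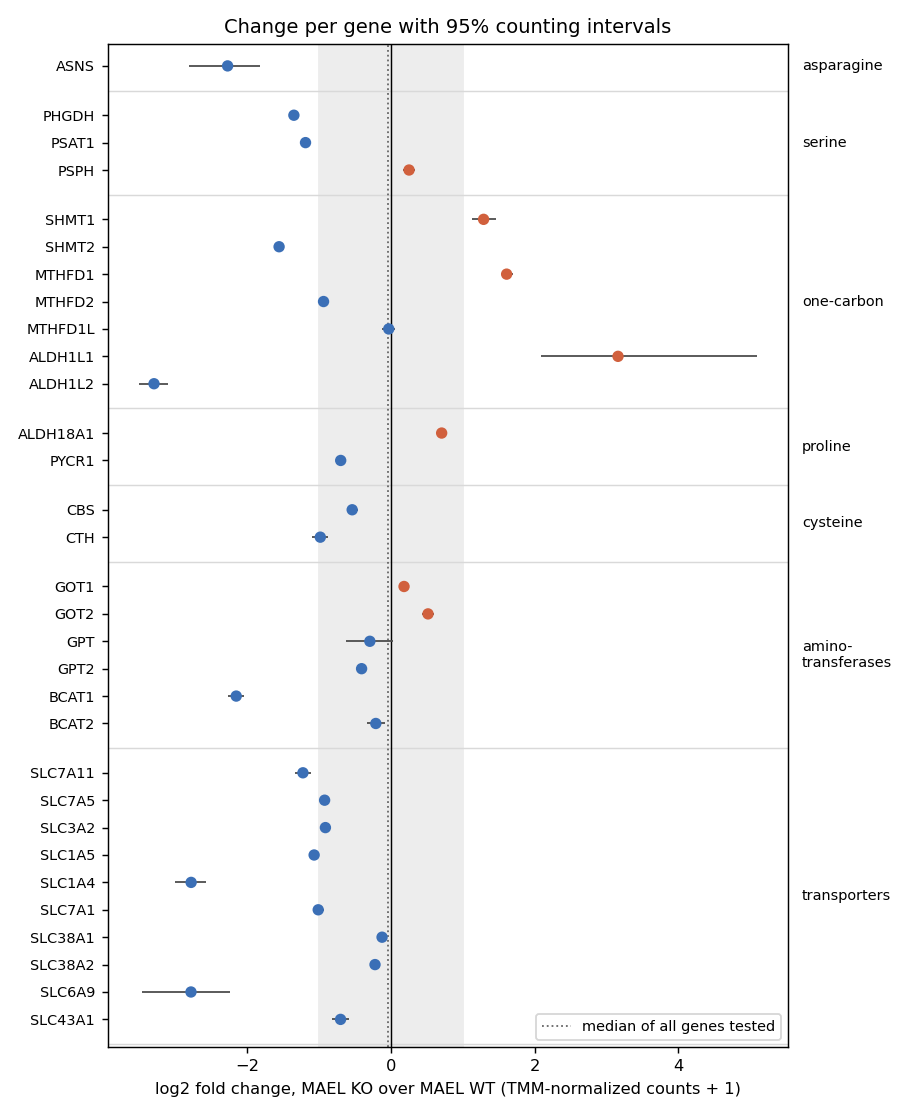
Log2 fold change of MAEL KO over MAEL WT for the 31 genes, on TMM-scaled counts with 1 added, with 95% intervals for counting error (bars, hidden by the point where narrow). Points are blue below 0 and orange above, the grey band spans -1 to 1, the dotted line is the median of all genes at -0.04, and the cytosolic enzymes SHMT1, MTHFD1 and ALDH1L1 stand to the right of the band.

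In proline synthesis the enzymes of the first and last step went opposite ways. ALDH18A1, which makes the glutamate semialdehyde that feeds the branch, had 3334 reads in MAEL WT and 4696 in MAEL KO (log2 0.70, interval 0.64 to 0.77). PYCR1, the mitochondrial reductase that forms proline, had 9095 and 4833 reads (log2 -0.70, interval -0.75 to -0.65). Exons of MYADML2 and AC145207.4 cover 29.73% of the exonic bases of PYCR1, and these had at most 25 reads. In the transsulfuration branch that turns homocysteine into cysteine, CBS had 3776 reads in MAEL WT and 2242 in MAEL KO (log2 -0.54, interval -0.62 to -0.47). CBS shares 52.28% of its 75-base words with CBSL, a near copy listed with 82 and 44 reads, so reads of these genes may be split or lost. CTH, the second enzyme, had 2222 reads in MAEL WT and 969 in MAEL KO (log2 -0.99, interval -1.10 to -0.88). Both enzymes of the branch were lower, CTH by 1.98-fold and CBS by 1.46-fold.

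Among the aminotransferases only BCAT1 differed by more than 2-fold. BCAT1, the cytosolic branched-chain enzyme at chr12:24810022-24949459 on the minus strand, had 4058 reads in MAEL WT and 786 in MAEL KO, 4.46-fold lower (log2 -2.16, interval -2.27 to -2.05). Its mitochondrial counterpart BCAT2 had 1179 and 879 reads (log2 -0.21, interval -0.34 to -0.09). The aspartate aminotransferases were slightly higher in MAEL KO, with 4033 and 3950 reads of the cytosolic GOT1 and 2002 and 2471 reads of the mitochondrial GOT2. The log2 fold change of GOT2 was 0.51 (interval 0.43 to 0.60), and that of GOT1 was 0.18 (interval 0.12 to 0.24) but turned to -0.10 with total counts. Exons of AL391684.1 on the opposite strand cover 19.32% of the exonic bases of GOT1, and AL391684.1 had 55 and 28 reads. The alanine aminotransferases were slightly lower. GPT had 192 reads in MAEL WT and 135 in MAEL KO (log2 -0.30, interval -0.63 to 0.03), and GPT2, the mitochondrial form, had 3863 and 2511 reads (log2 -0.41, interval -0.48 to -0.34).

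All 10 transporters were lower in MAEL KO, with a median log2 fold change of -0.97 and a range of -2.79 to -0.13, and 5 of them were below -1. Their share of all reads was 0.353% in MAEL WT and 0.183% in MAEL KO. SLC1A4, an exchanger of alanine, serine and cysteine at chr2:64988477-65023865 on the plus strand, had 1529 reads in MAEL WT and 191 in MAEL KO. It was 6.89-fold lower (log2 -2.79, interval -3.02 to -2.57). SLC1A5, the closely related glutamine exchanger, had 10212 and 4197 reads (log2 -1.07, interval -1.13 to -1.02). Exons of AC008622.2 on the opposite strand cover 23.41% of the exonic bases of SLC1A5, and AC008622.2 had 1 and 3 reads. SLC1A5 was 2.10-fold lower and yet stayed at 66.4 FPKM in MAEL KO, where SLC1A4 was at 1.45. SLC6A9, the glycine transporter GLYT1 at chr1:43991500-44031467 on the minus strand, had 222 reads in MAEL WT and 27 in MAEL KO, 6.90-fold lower (log2 -2.79, interval -3.46 to -2.25). These reads were few, and the interval of SLC6A9 was the widest among the transporters.

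The heavy chain SLC3A2 carries the light chains SLC7A5 and SLC7A11 to the membrane, where the first imports large neutral amino acids and the second, known as xCT, exchanges glutamate for cystine. SLC7A5 had 17186 reads in MAEL WT, the most of any of the 31 genes there, and 7817 in MAEL KO (log2 -0.93, interval -0.96 to -0.89). SLC3A2 had 8350 and 3826 reads (log2 -0.92, interval -0.97 to -0.86). SLC7A11 had 2521 and 930 reads (log2 -1.23, interval -1.34 to -1.12). Light chains and heavy chain were thus lower together, by 1.89-fold to 2.34-fold.

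SLC7A1, the main importer of cationic amino acids such as arginine, had 4730 reads in MAEL WT and 2022 in MAEL KO (log2 -1.02, interval -1.09 to -0.94). SLC43A1, a facilitator of large neutral amino acids, had 1527 and 810 reads (log2 -0.70, interval -0.83 to -0.58). The sodium-coupled glutamine transporters moved least. SLC38A2 had 14835 reads in MAEL WT and 10975 in MAEL KO (log2 -0.22, interval -0.26 to -0.19). SLC38A1 had 9193 and 7279 reads (log2 -0.13, interval -0.17 to -0.08). In MAEL KO, SLC38A2 stood at 87.7 FPKM.

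Ratios taken within a library need no scaling between libraries. SHMT2 exceeded SHMT1 by 26.5-fold on the FPKM scale in MAEL WT and by 3.68-fold in MAEL KO, a log2 change of the ratio of -2.85 (interval -3.03 to -2.67). MTHFD2 exceeded MTHFD1 by 7.28-fold in MAEL WT and by 1.24-fold in MAEL KO, a log2 change of -2.55 (interval -2.66 to -2.44). The ratio of MTHFD1L to MTHFD1 crossed 1, from 2.29 to 0.733 (log2 change -1.64, interval -1.77 to -1.52). ALDH1L2 stood at 794 times ALDH1L1 in MAEL WT and at 7.53 times in MAEL KO, with an interval of -8.42 to -5.37 around a log2 change of -6.72 that rested on 5 reads of ALDH1L1 in MAEL WT. These 4 ratios are not separate observations, since MTHFD1 is the denominator of 2 of them and MTHFD1L itself was at -0.03, and since ALDH1L1 was compared only through its reads in MAEL KO.

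The aminotransferase pairs differed among themselves. The ratio of BCAT2 to BCAT1 was 0.751 in MAEL WT and 2.89 in MAEL KO on the FPKM scale (log2 change 1.95, interval 1.78 to 2.11), so the mitochondrial form was the more abundant one in MAEL KO. The ratio of GOT2 to GOT1 was 0.444 in MAEL WT and 0.560 in MAEL KO (log2 change 0.33, interval 0.23 to 0.44). The ratio of GPT2 to GPT was 8.73 and 8.07, with an interval of -0.45 to 0.22 that held 0. The ratio of SLC7A5 to its heavy chain SLC3A2 was 2.25 in MAEL WT and 2.23 in MAEL KO, a log2 change of -0.01 (interval -0.08 to 0.06). SLC7A11 per SLC3A2 went from 0.162 to 0.131 (log2 change -0.31, interval -0.44 to -0.19).

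**Figure D3:**
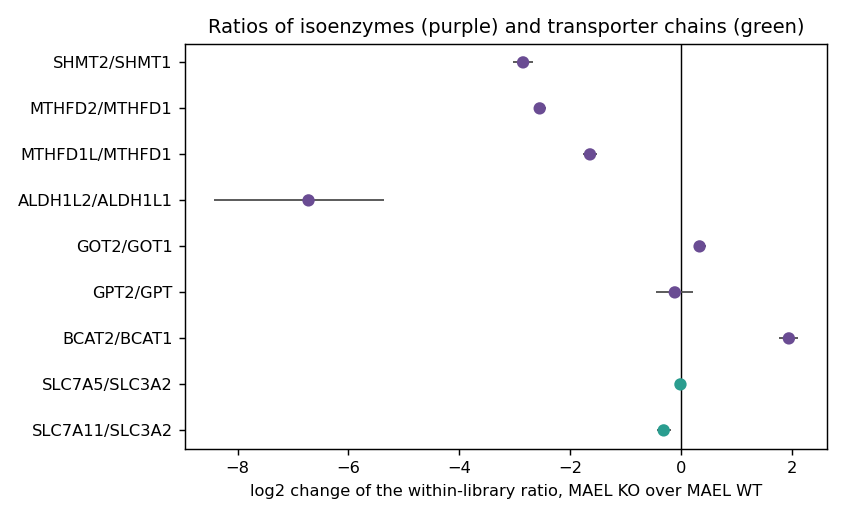
Log2 change, MAEL KO over MAEL WT, of the read ratio within a library for 7 pairs of mitochondrial over cytosolic isoenzymes (purple) and 2 transporter light chains over their heavy chain SLC3A2 (green), with 95% intervals for counting error. The 4 folate pairs lie between -6.72 and -1.64, BCAT2/BCAT1 lies at 1.95 and SLC7A5/SLC3A2 lies at -0.01.

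Other genes of the same pathways had a median above that of all genes. Of 60 other enzymes and carriers of amino acid and folate metabolism, 55 had at least 10 reads in 1 library, and of these 39 had a positive and 16 a negative log2 fold change, with a median of 0.35. With total counts, which shifted the median of all genes by -0.27, the split was 31 to 24 and the median 0.08. Above 1 there were 14 and below -1 there were 2, against 10.2% and 16.5% of all genes. AGXT, above 1 with 4 and 13 reads, reached 10 reads in MAEL KO alone, and PRODH, below -1, in MAEL WT alone. Each could thus enter the comparison only in the direction it had. SDS, which degrades serine to pyruvate and is typical of liver, had 157 reads in MAEL WT and 1507 in MAEL KO (log2 3.46, interval 3.24 to 3.72). TYMS, the thymidylate synthase that uses the cytosolic one-carbon unit, had 330 and 1272 reads (log2 2.15, interval 1.98 to 2.34). At the low end were PRODH, the first enzyme of proline breakdown, CSAD, a step of taurine synthesis, and MTHFS, which returns 5-formyltetrahydrofolate to the pool. PRODH had 23 and 2 reads. It was 6.63-fold lower when 3 reads were set for the MAEL KO library, and its counting interval was -6.44 to -1.30 on the log2 scale. CSAD had 669 and 172 reads (log2 -1.74), and MTHFS had 355 and 163 reads (log2 -0.91, interval -1.19 to -0.64).

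Other amino acid transporters differed in both directions. Of 37 listed, 32 had at least 10 reads in 1 library, 14 were higher and 18 lower (12 and 20 with total counts), with a median of -0.04. Above 1 there were 8, or 25.0%, and below -1 there were 4, or 12.5%, against 10.2% and 16.5% of all genes. Of those below -1, SLC7A3, SLC6A14 and SLC38A5 reached 10 reads in MAEL WT alone. They could thus enter the comparison only as genes lower in MAEL KO. SLC38A5 had 11 and 4 reads, and its interval of -3.36 to 0.51 held 0. The highest were SLC1A3, a glutamate transporter, with 21 reads in MAEL WT and 146 in MAEL KO (log2 2.95, interval 2.34 to 3.74), SLC7A9, a cystine transporter, with 20 and 109 reads, and SLC1A2, another glutamate transporter, with 78 and 331 reads. The lowest were SLC7A3, SLC6A14 and SLC38A3. SLC7A3, a cationic amino acid transporter, had 15 reads in MAEL WT and 0 in MAEL KO. It was 4.32-fold lower when 3 reads were set for the MAEL KO library, and its counting interval lay below -1.63 on the log2 scale. SLC6A14 had 59 and 7 reads and SLC38A3, a glutamine transporter, had 203 and 75 reads. The log2 fold changes of SLC6A14 and SLC38A3 were -2.71 (interval -4.24 to -1.73) and -1.22 (interval -1.63 to -0.84).

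Of 21 sensors, transcription factors and feedback genes of the integrated stress response, 17 were lower and 4 higher in MAEL KO, with a median of -1.42. Below -1 there were 12, or 57.1%, and above 1 there were 0, against 16.5% and 10.2% of all genes. CHAC1, which degrades glutathione, had 2016 reads in MAEL WT and 131 in MAEL KO (log2 -3.72, interval -4.00 to -3.48). NUPR1, a stress-induced transcriptional regulator, had 6923 and 534 reads (log2 -3.48, interval -3.62 to -3.36), and SESN2, a leucine sensor, had 3476 and 464 reads (log2 -2.69, interval -2.84 to -2.56). The transcript of ATF4 itself, which is controlled mainly in translation, had 12198 and 8922 reads (log2 -0.24, interval -0.28 to -0.20). At the other end were EIF2S1, the translation factor subunit phosphorylated in this response, with a log2 fold change of 0.42, GCN1, a partner of the amino acid sensor GCN2, with 0.28, and EIF2AK4, GCN2 itself, with 0.24. With total counts 2 of the 21 genes were higher and 19 lower.

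**Figure D4:**
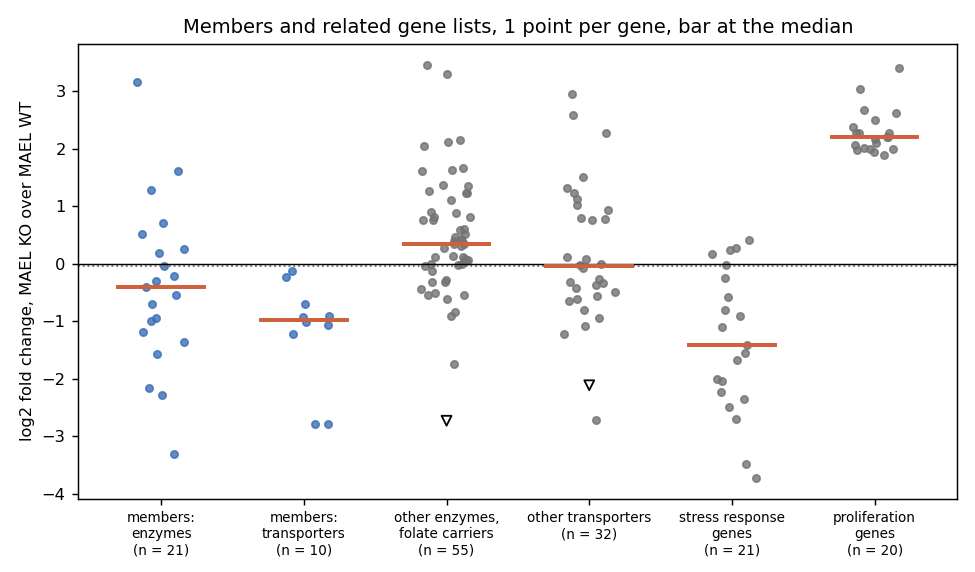
Log2 fold change of MAEL KO over MAEL WT for each gene with at least 10 reads in 1 library (points), by list, with the list median (orange bar) and the median of all genes (dotted line). Open triangles mark PRODH and SLC7A3 at their fold with 3 reads set for MAEL KO. The 10 transporters among the 31 genes lie below 0, and the 20 proliferation genes lie between 1.90 and 3.40.

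Genes of DNA replication and cell division also differed between the libraries. Of 20 proliferation genes, 20 were higher in MAEL KO, with log2 fold changes of 1.90 to 3.40 and a median of 2.21. Over all 17887 genes, 8593 were higher and 10.2% exceeded 1. RRM2, a ribonucleotide reductase subunit, had 235 reads in MAEL WT and 2159 in MAEL KO, and TOP2A, at the low end, had 2020 and 6521 reads. The 10 hepatoma markers were also all higher, with a median of 1.60. The part of either list in the values of the 31 genes was not tested.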

How the data were processed

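RNA of 1 MAEL WT and 1 MAEL KO culture of PLC8024 cells was sequenced on a HiSeq instrument. The authors deposited whole-number read counts per gene and FPKM values. Per the labels, HISAT2 2.0.5 and featureCounts 1.5.0-p3 were used and the build was hg19, but all 58735 listed genes have the identifiers and GRCh38 coordinates of GENCODE 29, so coordinates here are GRCh38. Use of strand in counting is not given in the sources used here. The deposited FPKM values use library sizes rescaled by the authors, 21872531 for MAEL WT and 18958459 for MAEL KO, in place of the totals.

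Counts were scaled with TMM factors (1.10 for MAEL WT, 0.909 for MAEL KO) from edgeR 4.0.16 in R 4.3.3, and 1 was added before the log2 ratio. The 17887 genes that reached 10 counts in either library were compared. Intervals at 95% were converted from exact Clopper-Pearson limits on the fraction of counts found in MAEL KO, or are exact conditional intervals of the odds ratio for pairs of genes, computed with SciPy 1.17.1. They hold counting error alone, and PCR copies of 1 molecule were not told apart. The floor was 3 counts, or 0.151 CPM in MAEL WT and 0.144 in MAEL KO. The log2 limit of 2 is that of the study and 1 was added, both on the fold alone. No p-value was computed because 1 library per group leaves no replicate error. Alternatives were DESeq2 1.42.0 size factors, total counts, deposited FPKM with 0.01 added, added counts of 0.1 and 5, a minimum of 100 counts, no minimum and scaling by protein-coding genes alone. Steps were tested on simulated data.

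The 31 genes and all lists were chosen with earlier results of these data known. By rule, named genes are the 31, MAEL, ATF4, up to 3 at each end of each list, cell type markers and loci that share sequence with the 31. Other genes of the enzyme and transporter lists, such as GLDC, SARDH, OAT and PYCR3, were named outside the rule, after their values were seen. Promoters are from RefSeq (GRCh38.p14). Some genes that the naming rule covers are left out.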

Additional observations from a re-analysis of the deposited data

How the results depend on the processing

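Across 8 alternatives, 247 values of single genes were recomputed, of which 220 stayed within their counting interval, 27 moved beyond it and 0 were reversed among genes called at 1. A minimum of 100 counts and no minimum change only which genes are compared, so their 30 and 31 values could not differ. Deposited FPKM used library sizes close to those from DESeq2 size factors. All 27 came from scaling by total counts, where the median of all genes went from -0.04 to -0.31 and that of the 31 genes from -0.70 to -0.98, a distance between them of -0.67 in either case. The sign of PSPH and GOT1 then changed, to -0.03 and -0.10, and 15 genes were below -1 in place of 11. With a minimum of 100 counts, ALDH1L1 was no longer compared and 0 of the 31 genes exceeded 2. All other counts over the 31 genes stayed within 1.5 times their value, and the medians of the enzymes and of the transporters kept their sign.

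Over all genes, 1008 were below -2, 387 above 2, 2951 below -1 and 1827 above 1. These became 513, 250, 2508 and 1620 with 5 added and 1309, 269, 4017 and 1174 with total counts, of 17887 genes each. They became 283, 185, 1101 and 1110 of 12023 genes with a minimum of 100 counts, and 1773, 1029, 5745 and 5304 of 30059 genes with no minimum. At 100 counts, which 30 of the 31 genes reached, 2.35% of all genes were below -2 and 9.16% below -1. No paired analysis was possible because each group has 1 library, and leaving out a library was not possible for the same reason. Depth limits ALDH1L1, SLC6A9 and ASNS most.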

Other observations

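Several genes that break down serine, glycine, proline and glutamate were higher in MAEL KO, although PRODH was lower. They are named here after their values were seen. Besides SDS and TYMS, genes above 2 among the other enzymes included SARDH, which oxidises sarcosine to glycine, with 117 reads in MAEL WT and 444 in MAEL KO (log2 2.12, interval 1.84 to 2.44), and PIPOX, a peroxisomal oxidase of sarcosine and pipecolate, with 43 and 156 reads (log2 2.04, interval 1.57 to 2.59). Of the mitochondrial glycine cleavage system, which passes the carbon of glycine to folate, GLDC had 848 reads in MAEL WT and 2282 in MAEL KO (log2 1.64, interval 1.52 to 1.75), GCSH had 230 and 507 reads (log2 1.35, interval 1.12 to 1.58) and DLD, a subunit shared with other complexes, had 3119 and 4569 reads (log2 0.76, interval 0.70 to 0.83). AMT, the remaining subunit, had 9 and 3 reads and was not compared. These mitochondrial genes had values opposite in sign to SHMT2, MTHFD2 and ALDH1L2.

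OAT, which links ornithine and glutamate semialdehyde, had 5497 reads in MAEL WT and 10217 in MAEL KO (log2 1.10, interval 1.06 to 1.15), GLUD1, the glutamate dehydrogenase, had 2511 and 5239 reads (log2 1.27, interval 1.20 to 1.34), and ALDH4A1, which completes proline breakdown, had 243 and 647 reads (log2 1.62, interval 1.41 to 1.84). PYCR3, a proline reductase that acts in the cytosol, had 409 and 833 reads (log2 1.23, interval 1.06 to 1.41), while PYCR1 was at -0.70.

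Loci that share sequence with the 31 genes had counts of their own. PSPHP1, a pseudogene of PSPH, had 335 reads in MAEL WT and 462 in MAEL KO (log2 0.67, interval 0.47 to 0.88). SLC7A11-AS1, which overlaps SLC7A11, had 37 and 12 reads (log2 -1.35, interval -2.49 to -0.44). SLC7A5P1 had 43 and 74 reads (log2 0.98, interval 0.43 to 1.57), opposite in sign to SLC7A5. The summed counts of each gene and its related locus kept the sign of the gene.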
